A study of Mus musculus with 8 samples.

Results

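The clustered protocadherin genes are 57 of the 21938 protein-coding genes annotated on chromosomes 1 to 19, X and Y of the mouse genome (mm10). They were taken by name and place: every protein-coding gene on chromosome 18 whose symbol starts with Pcdha, Pcdhb, Pcdhga, Pcdhgb or Pcdhgc. The rule gave 14 Pcdha, 22 Pcdhb and 21 Pcdhg genes. All 57 lie on the plus strand between positions 36930184 and 37841873, and their starts are at least 4131 bp apart. Each gene was read as the window from 1 kb before to 1 kb after its start, which holds its promoter and the first part of its variable exon, and the cluster as a whole was read in 1-kb tiles.

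The study profiled SOX9, a transcription factor of astrocytes and ependymal cells, on chromatin of the mouse spinal cord by CUT&Tag, in which a tethered transposase inserts adapters near the antibody's target. WT C57BL/6 mice, 8 to 12 weeks old on entry, were either uninjured or were sampled 1 day after a contusion injury of the thoracic cord (1 dpi), and 7AAD-stained nuclei were sorted from 5 mm of cord around the lesion or at the same level. Each condition had a male (M) and a female (F) library with SOX9 antibody and a matched pair made from nuclei set aside with the secondary antibody alone, 8 libraries in 4 groups of 2. According to the methods, 2 to 4 animals of both sexes were pooled for each condition, and the number behind each library is not given, so each condition rests on 2 SOX9 libraries, and sex and replicate are the same split.

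The SOX9 libraries held 1891276 (uninjured M), 7216730 (uninjured F), 2529356 (1 dpi M) and 2385009 (1 dpi F) fragments. The secondary-only controls held 22752, 46846, 52950 and 10906 in the same order, too few to measure a single window. Coverage was divided by the library's mean over the genome, so that 1 is the genome average and levels are comparable per base pair between genes. Values below follow the order uninjured M, uninjured F, 1 dpi M, 1 dpi F. The libraries differed in how far promoters stood out: the mean over all promoter windows was 4.78, 8.72, 6.63 and 5.55. In the secondary-only controls the same mean was 6.95, 7.27, 6.36 and 6.81, within the range of the SOX9 libraries. Coverage of a promoter in a SOX9 library was not read by itself as a measure of SOX9 binding. Whether reads passed from the SOX9 libraries into the controls was not tested. Coverage of the Y chromosome over the autosomes followed the sex labels in the SOX9 libraries, at 0.298, 0.0253, 0.166 and 0.0379. It did not in the controls (0.0539, 0.0596, 0.0748 and 0.0345), and coverage of the X chromosome in the SOX9 libraries was higher in M than in F of the uninjured pair (0.335, 0.260, 0.272 and 0.374).

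Clustered protocadherins are cell-surface adhesion proteins that bind only the same isoform on another cell, and the mix that a neuron displays lets its branches recognise and avoid each other. In the Pcdha and Pcdhg clusters each variable exon has its own promoter and is spliced to shared constant exons, whereas each Pcdhb gene is a single exon that encodes a whole protein. Alternate exons are switched on in a random few per neuron through promoter demethylation, CTCF and cohesin looping to distant enhancers, while the C-type exons (Pcdhac1, Pcdhac2, Pcdhgc3, Pcdhgc4 and Pcdhgc5) are expressed more broadly and are not part of the random choice.

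The C-type promoters stood apart from the rest of the cluster. The 5 C-type windows were the 5 highest of the 57 members by mean SOX9 coverage, with a median of 6.79 times the library mean. The 52 alternate windows had a median of 0.662, below the genome average, and the median of all promoter windows was 3.71. The C-type mean over the alternate mean was 5.33, 10.7, 10.8 and 6.34 in the 4 libraries, so the order held in each, although the gap was smaller in the uninjured M and 1 dpi F libraries. In those libraries 12 and 15 alternate windows exceeded the lowest C-type window, against 0 in the uninjured F and 1 in the 1 dpi M library. Against the mean of all promoter windows in the same library, the C-type mean was 0.860, 0.982, 1.41 and 1.06, so C-type promoters were covered about as much as an average promoter, and the alternate mean was 0.161, 0.0914, 0.130 and 0.167.

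In all, 10 of the 57 members were above the library mean in all 4 SOX9 libraries (17.5%), against 59.8% of all promoter windows. They were the 5 C-type members and 5 alternate members of the Pcdhg cluster, Pcdhga7, Pcdhga8, Pcdhga9, Pcdhgb6 and Pcdhga12. A mean below 1 was found in 36 of the 57 members, against 5748 of all 21938 promoter windows. These members were all 22 Pcdhb genes, 9 Pcdha genes and 5 Pcdhg genes. At least 1 SOX9 library had no coverage in 37 member windows (64.9%), against 24.7% of all windows. The member windows together held 892 SOX9 fragments, 432 of them in the C-type windows, so values of single alternate windows rest on few fragments.

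**Figure D1:**
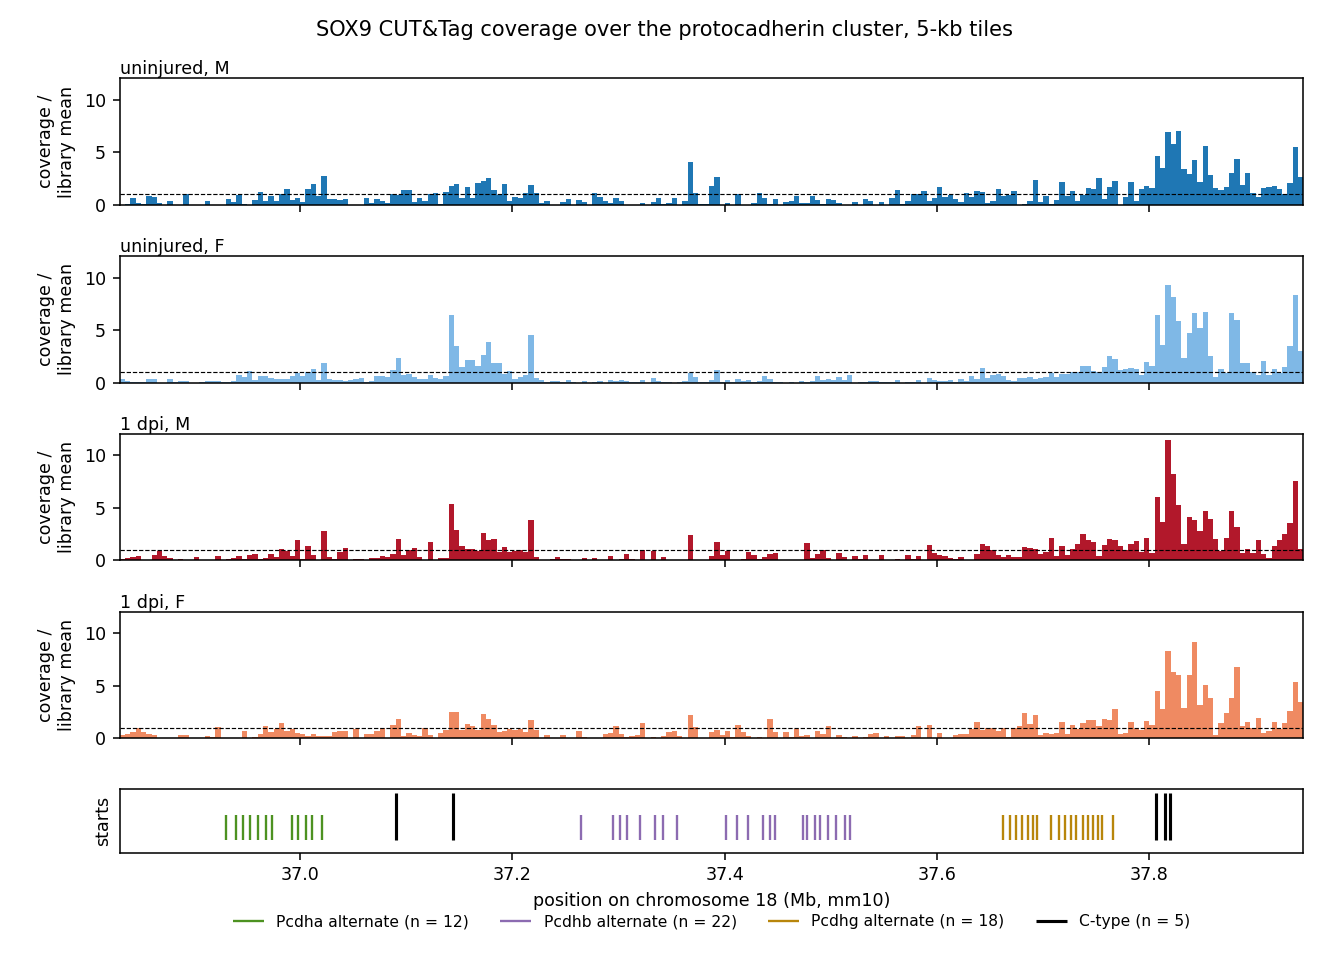
SOX9 CUT&Tag coverage over the library mean (linear axis from 0; the dashed line marks 1) in 5-kb tiles along the cluster and its flanks on chromosome 18, with 1 panel for each of the 4 SOX9 libraries and the starts of the 57 members below (C-type in black). The tallest signal inside the cluster lies in the stretch from the 3 C-type exons to the end of the Pcdhg cluster, and the Pcdhb array is the lowest stretch of exons, at a mean of 0.368.

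Among the C-type members, Pcdhac1, the earlier of the C-type exons in the Pcdha cluster (start 37090013), had a coverage of 3.56, 5.08, 3.72 and 3.79. It was the most even C-type window, on 44 fragments, and its conditions overlapped (4.32 ± 1.07 uninjured and 3.75 ± 0.0506 at 1 dpi, mean ± SD, n = 2). Pcdhac2, the last variable exon of the Pcdha cluster (start 37143503), which serotonergic neurons need for their axons to tile, had 1.45, 8.86, 10.2 and 1.48. Here the uninjured F and 1 dpi M libraries were high and the other pair low, so the log2 change at 1 dpi was 2.45 in M and -2.24 in F (1.49 and -0.97 with windows of 2 kb). Those values rest on 4, 48, 18 and 3 fragments. The exact Poisson 95% intervals, which cover counting error only, were 0.396 to 3.72 and 6.02 to 16.05 in the M libraries, and 6.53 to 11.7 and 0.305 to 4.32 in the F libraries, without overlap within either sex. The same libraries had the higher mean over all promoter windows, whose part in this pattern was not tested.

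Pcdhgc3 (start 37806364), the C-type isoform that promotes dendrite branching, had 4.34, 9.38, 8.76 and 4.66. Its high and low libraries were those of Pcdhac2, on a smaller range, and the conditions overlapped (6.86 ± 3.56 and 6.71 ± 2.898). Pcdhgc4 (start 37815079), the isoform on which interneuron survival depends, had 5.33, 11.9, 10.8 and 7.73, again lowest in the uninjured M library and with overlapping conditions (8.63 ± 4.66 and 9.28 ± 2.19). Pcdhgc5 (start 37819513), the last variable exon of the whole cluster and the one that binds GABA-A receptors at synapses, had 5.86, 7.57, 13.2 and 11.8. It was the highest member by mean coverage (9.60, or 8.88 without a stack of short fragments, which puts it after Pcdhgc4 at 8.95) and the only C-type member whose conditions did not overlap (6.71 ± 1.21 uninjured and 12.5 ± 0.960 at 1 dpi). The limma estimate was 0.86 on the log2 scale (SE 0.67, adjusted p = 1.00 over all windows), so the difference did not pass the test.

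Averaged over libraries, coverage around the C-type starts formed a peak. In the 500 bp after the start the mean over the 5 genes was 5.24, 12.5, 13.9 and 9.59, and averaged over the libraries it was 10.3 there, 8.002 in the 500 bp before the start and 3.42 in the 500 bp before that. The peak was not seen in the uninjured M library, whose bins ran unevenly from 1.06 to 5.88 over 4 kb on each side. Alternate windows of the Pcdhg and Pcdha clusters had more coverage after the start than before it. In the Pcdhg alternate genes the mean was 2.62 in the 500 bp after the start and 0.742 in the 500 bp before it. The Pcdha alternate genes had 1.54 and 0.544 at the same places, and the Pcdhb genes 0.549 and 0.275. Neither had a peak at the start alone, since bins farther into the exon were as high or nearly so, at 1.48 for Pcdha (2000 to 2500 bp) and 0.807 for Pcdhb (1500 to 2000 bp). For the Pcdhg alternate genes the bin after the start held 2.61, 2.49, 2.07 and 3.297, the highest bin in each SOX9 library except 1 dpi M, where the next bin had 2.103.

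**Figure D2:**
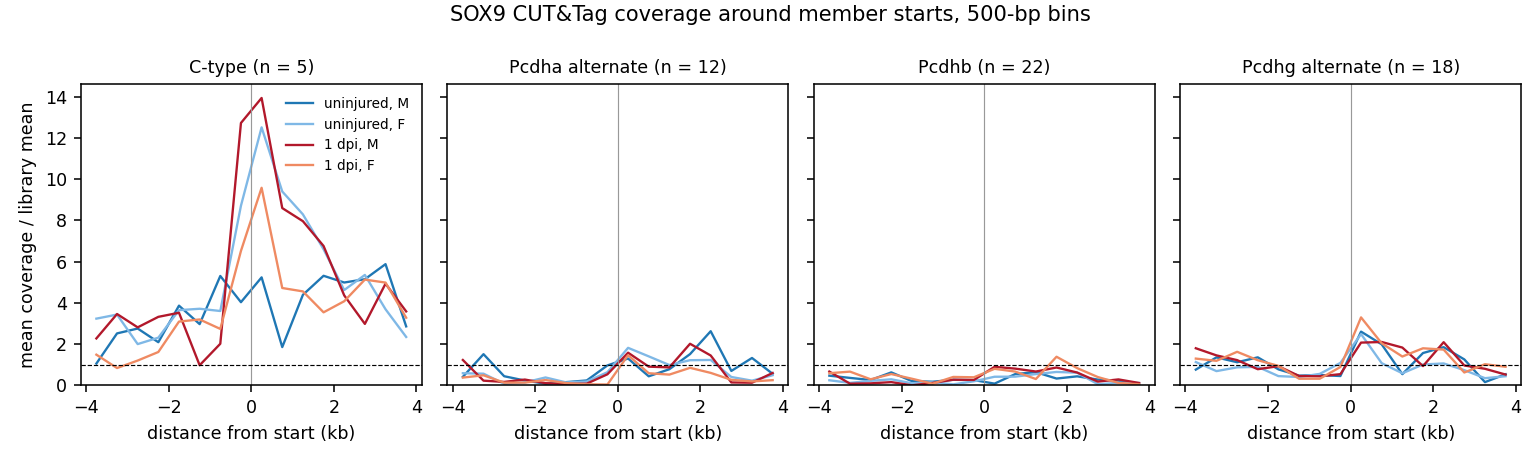
Mean SOX9 CUT&Tag coverage over the library mean in 500-bp bins from 4 kb before to 4 kb after the start, for the 5 C-type, 12 Pcdha alternate, 22 Pcdhb and 18 Pcdhg alternate genes, with 1 line for each SOX9 library. The C-type bin after the start reaches 13.9 in the 1 dpi M library and 5.24 in the uninjured M library.

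The 12 alternate members of the Pcdha cluster had a median of 0.721. Pcdha9 was the highest of them at 1.59, 1.13, 3.16 and 0, and its 10 fragments left no steady order between libraries. Pcdha1, the first exon of the cluster, was the lowest at 0, 0.216, 0 and 0, a single fragment. The next lowest was the gene starting at 37005203, which GENCODE names Pcdha11 and RefSeq names Pcdha10, at 0, 1.03, 0.304 and 0.186. Another gene, starting at 37010712, is Pcdha11 in both. Alternate exons nearer the constant exons tended to have more coverage: the Spearman correlation between order and mean coverage across the 12 genes was 0.62. By library it was 0.48, 0.60, 0.52 and 0.08, so it was nearly absent in the 1 dpi F library.

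The 22 Pcdhb genes were the lowest family, with a median of 0.479 and no member at or above 1. Pcdhb16 was the highest at 0, 0.126, 2.79 and 0, so its rank came from 1 library. Pcdhb5 had 0.453, 0.390, 0 and 2.07, and Pcdhb6 had 0, 0.873, 1.40 and 0.383. Pcdhb21 (0, 0.149, 0 and 0) and Pcdhb15 (0, 0.266, 0 and 0) had 1 fragment each, both in the deepest library. No coverage in at least 1 SOX9 library was found for 20 of the 22 genes. The correlation with order across the 22 genes was -0.28, and by library -0.14, 0.25, 0.11 and -0.60, without a steady sign.

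The 18 alternate members of the Pcdhg cluster were the best covered alternates, with a median of 1.26. Pcdhgb6 had 2.75, 3.34, 1.95 and 2.76, a narrow range for an alternate member. Pcdhga7 had 3.85, 1.66, 2.21 and 2.91, and Pcdhga9 had 1.80, 1.59, 3.86 and 2.28. These windows were above the genome average in each SOX9 library while their means stayed under the median of all promoters. At the other end, Pcdhga5 had 0.341, 0.307, 0.0411 and 0 and Pcdhga2 had 1.12, 0.498, 0.584 and 0, on 5 fragments each. The correlation of order with mean coverage across the 18 genes was 0.56, with a mean of 1.11 over the first 9 genes and 1.70 over the last 9. By library the correlation was 0.22, 0.78, 0.41 and 0.0031, strongest in the deepest library and absent in the 1 dpi F library. Neighbouring genes share libraries, sequence and surroundings, so these correlations describe the array and are no test.

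**Figure D3:**
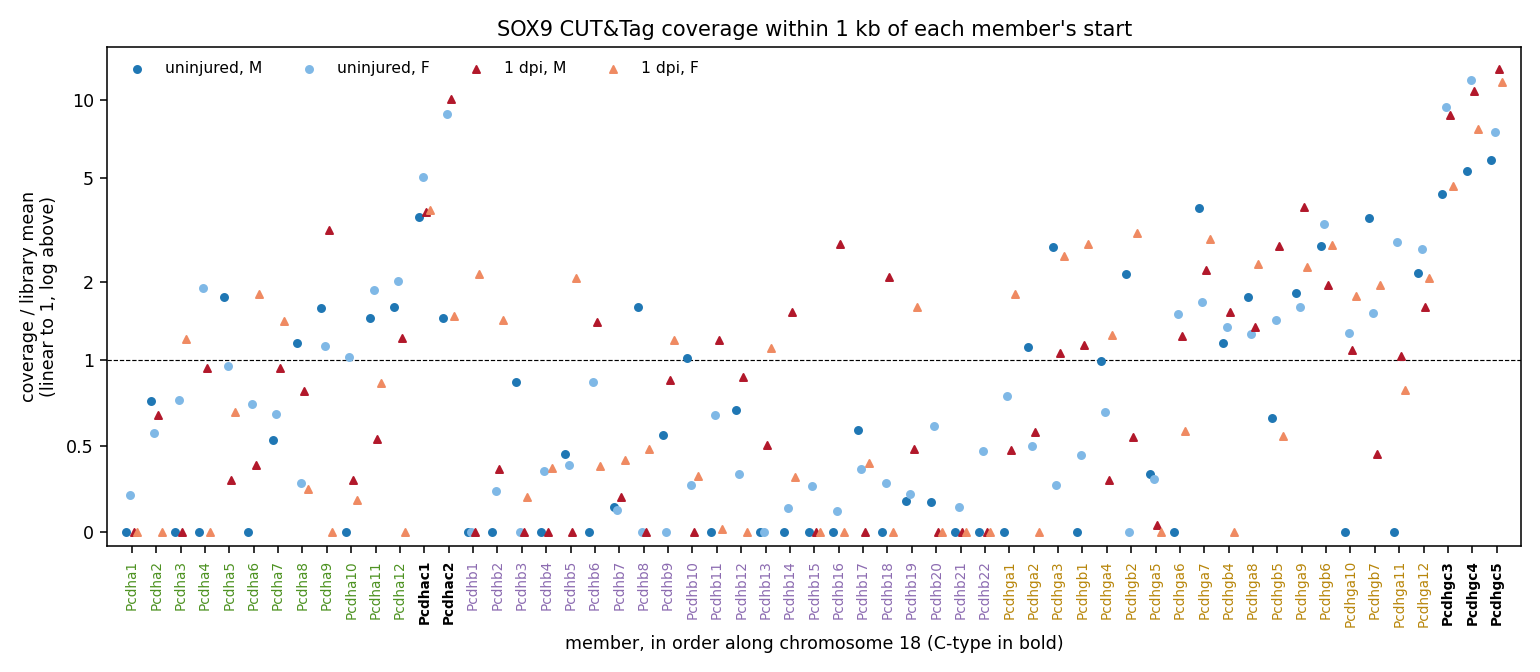
SOX9 CUT&Tag coverage over the library mean in the window of each of the 57 members, in genomic order, with 1 point for each SOX9 library (axis linear up to 1 and logarithmic above). The 5 C-type members lie between 1.45 and 13.2, and no Pcdhb gene has a mean above 0.730.

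The comparison of 1 dpi with uninjured cord asks whether SOX9 occupancy of the cluster shifted in the acute phase of the injury. No member window passed the test. Of the 57 members, 40 had a mean of at least 0.5 and were tested (11 Pcdha, 9 Pcdhb and 20 Pcdhg), and limma called 0 of them at an adjusted p under 0.05, with 0 at an unadjusted p under 0.05. Over all 18193 windows tested, 0.0055% were called higher and 0% lower, and 329 had an unadjusted p under 0.05. Members moved by a median log2 change of 0.02 (-0.04 with trimmed mean scaling), all windows by -0.05. The sign depended on single libraries. Without the uninjured M library the member median was -0.27, beside -0.39 over all windows. Without the uninjured F library it was 0.25, beside 0.24. By sex the member median was 0.05 in M and -0.24 in F, beside 0.30 and -0.44 over all windows. Since whole tissue was profiled, a share of cells with signal and a level of signal per cell cannot be told apart.

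Without a test, 10 members (17.5%) were higher in both 1 dpi libraries than in both uninjured ones, against 8.34% of all windows, and 6 (10.5%) were lower in both, against 13.9%. The members that were higher comprised 6 Pcdhb genes, 1 Pcdha gene and 3 Pcdhg genes, and those that were lower 1 Pcdhb, 3 Pcdha and 2 Pcdhg genes. With 2 libraries a side such counts carry no test.

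Pcdhgb1, an alternate exon early in the Pcdhg cluster, had the largest log2 difference among the members higher at 1 dpi, at 0, 0.451, 1.14 and 2.79. That order rests on 11 fragments in all, and its limma estimate of 1.75 (SE 0.91) had an adjusted p of 1.00. Pcdhb13 had 0, 0, 0.506 and 1.104 and Pcdhb14 had 0, 0.141, 1.52 and 0.322. Both were too low to be tested, on 4 and 5 fragments. The 3 largest differences in the other direction were all in the Pcdha cluster. Pcdha12, the last alternate exon before Pcdhac1, had 1.59, 2.01, 1.22 and 0, Pcdha5 had 1.75, 0.966, 0.302 and 0.697, and the Pcdha11 gene starting at 37010712 had 1.44, 1.85, 0.541 and 0.863. Their limma estimates were -1.31, -0.89 and -0.84 (SE 0.87, 0.89 and 0.84), each with an adjusted p of 1.00.

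By family, the mean over the 22 Pcdhb windows was 0.287, 0.269, 0.560 and 0.566, so that the means of the conditions lay apart (0.278 ± 0.0122 and 0.563 ± 0.0041) while every value stayed under the genome average. The medians over the same windows were 0, 0.254, 0.102 and 0.350 and overlapped, and single windows such as Pcdhb16 (2.79) and Pcdhb18 (2.08) in the 1 dpi M library weigh on the means. These means rest on 12, 38, 24 and 25 fragments, and the means lay apart in the same direction under all 7 window, scaling and depth settings. Those settings read largely the same fragments and leave out no library, so their agreement is no independent support. The Pcdha alternate mean was 0.735, 1.01, 0.776 and 0.534, with overlapping conditions under 6 of the 7 settings. The Pcdhg alternate mean was 1.39, 1.30, 1.29 and 1.64, also overlapping under 6 of 7. The exceptions were windows of 0.5 kb, where Pcdha was lower at 1 dpi, and of 2 kb, where Pcdhg was higher. Over the whole Pcdhb array, exons and the DNA between them together, the coverage was 0.472, 0.220, 0.354 and 0.427, and the conditions overlapped.

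As a region, the cluster was close to the genome average. Its whole span of 911.69 kb had a SOX9 coverage of 0.933, 0.837, 0.883 and 0.827 (0.885 ± 0.0683 uninjured and 0.855 ± 0.0398 at 1 dpi; two-sided exact permutation p = 0.667, where 0.33 is the smallest p that 2 against 2 allows). That is higher than in 57.4% of the 2979 genome blocks of equal length. Within the span the level was uneven. The 36.51 kb from 1 kb before Pcdhgc3 to the end of the cluster, with the 3 Pcdhg C-type exons and the shared Pcdhg constant exons, had 5.16, 5.69, 5.75 and 5.48, with little difference between libraries (5.42 ± 0.375 and 5.62 ± 0.195). The secondary-only controls were also high there, at 4.18, 10.5, 9.34 and 17.6 on 1, 14, 14 and 3 fragments, and at 4.18, 7.46, 7.18 and 17.6 on 1, 3, 5 and 3 fragments without a stack of short fragments before Pcdhgc5. The stretch from Pcdhac1 to the end of the Pcdha cluster averaged 1.36, the Pcdhg alternate array 1.14, the Pcdha alternate array 0.544 and the Pcdhb array 0.368. The 500 kb before the cluster averaged 1.88 and the 500 kb after it 3.11.

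Of the 912 tiles of 1 kb in the cluster, 69 (7.57%) were above the library mean in all 4 SOX9 libraries, against 8.2% of all tiles of the genome. Tiles within 1 kb of a member start averaged 1.21, tiles on other member exons 1.28 and the remaining 605 tiles 0.682. The remaining tiles include some with exons of Pcdhgb8, which is not among the members. The highest tile, 37819001 to 37820000, holds the Pcdhgc5 start and had 5.05, 10.2, 18.4 and 14.4. The next, 37815001 to 37816000, holds the Pcdhgc4 start and averaged 11.05. The tile 37806001 to 37807000 with the Pcdhgc3 start ranked 5 at 9.18. Between them stood a pair of tiles without a member start: 37822001 to 37823000 covers a later member exon and was even across libraries at 12.1, 9.88, 11.01 and 10.3, and 37826001 to 37827000 lies 6987 bp past the Pcdhgc5 start, on no member exon, and had 5.17, 11.3, 15.5 and 11.1. All of the 5 highest tiles thus lay in the last stretch of the Pcdhg cluster.

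In the fit over all 795162 tiles with a mean of at least 1, limma called 0.00465% higher and 0.000503% lower at 1 dpi, that is 37 and 4 tiles. These calls depended on the settings. They fell to 7 and 0 under trimmed mean scaling, 9 and 0 with a pseudocount of 2, and 8 and 0 with sex as a block. In the fit of all 8 libraries they were 0 and 0. They rose to 87 and 22 with a pseudocount of 0.1, 58 and 9 with a tile filter at 2, and 46 and 4 with tiles of 5 kb. Among the 230 cluster tiles tested in the main fit, limma called 0. Of these, 7 had an unadjusted p under 0.05, beside 27629 of all the tiles tested. Without a test, 68 cluster tiles were higher in both 1 dpi libraries (9.27% of all tiles were) and 104 were lower in both (11% of all tiles were).

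The secondary-only controls held 4, 20, 24 and 8 fragments in the whole span, a coverage of 0.485, 0.864, 0.940 and 2.01 (two-sided exact permutation p = 0.333 between conditions, again with 2 against 2). In the member windows they held 27 fragments, 24 of them in C-type windows, where the control coverage was 0, 24.8, 17.0 and 9.92. Of those, 20 belonged to the stack of very short fragments, 28 to 38 bp long over all libraries, that begin at the same base, 37818548, 965 bp before the Pcdhgc5 start. The stack held 0, 11, 9 and 0 fragments in the controls and 15, 15, 2 and 10 in the SOX9 libraries. Its bases are repetitive: of the 7 words of 32 bases in the stretch, 6 occur more than once in the genome, the commonest 1671 times. Without the stack, Pcdhgc5 had 4.35, 7.12, 13.01 and 11.03 in the SOX9 libraries (5.73 ± 1.96 and 12.02 ± 1.41), so its conditions were still apart. In the controls the C-type coverage without the stack was 0, 13.6, 9.14 and 9.92, on 4 fragments, beside 3.81, 8.47, 9.29 and 5.74 in the SOX9 libraries. The alternate windows held 3 control fragments.

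Control fragments also shared their ends with the SOX9 libraries. Of the 32 control fragments in the span that no other fragment of the same library overlapped, 22 (68.8%) began and ended at positions where SOX9 fragments also began and ended. No share over the whole genome is given beside this one, and whether reads passed between libraries was not tested.

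The sequence of the windows ran with their level only in part. C-type windows had a median GC content of 51.4%, close to the 51.2% of all promoters, and alternate windows 42.5%. The observed over expected CpG ratio had a median of 0.567 in C-type windows, 0.642 in Pcdha alternate, 0.33 in Pcdhb and 0.507 in Pcdhg alternate windows, and 0.475 in all promoters. The lowest family in SOX9 coverage, Pcdhb, was thus the poorest in CpG, yet Pcdhgc5, among the highest members with or without the stack, had a ratio of only 0.252. Across the 57 genes the Spearman correlation with mean coverage was 0.43 for the CpG ratio and 0.59 for GC content, beside 0.72 and 0.70 across all 21938. The 16420 other promoters whose CpG ratio lay in the range of the alternates had a median coverage of 4.09, against 0.662 for the alternates. For the C-type range the 13786 others had 5.90, against 6.79. Both ranges take in most promoters (0.138 to 0.767 and 0.252 to 0.821), and GC content was not matched. These comparisons therefore do not set the sequence of the windows aside.

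Neighbouring alternate exons resemble each other in sequence. In the C-type windows at most 0.762% of the 32-base words recur in the genome, and in the alternates up to 26.3% (Pcdha7), with medians of 11.4% in Pcdha, 0.406% in Pcdhb and 2.36% in Pcdhg. Coverage of windows with more than 10% was compared within families: in Pcdhb the 7 such windows had a median coverage of 0.485 and the other 15 had 0.402, and in the Pcdhg alternates the 5 such windows had 1.67 and the other 13 had 1.097. In the Pcdha alternates the 10 such windows had 0.721 and the other 2 had 0.762. Across the 57 genes the correlation of the share with mean coverage was -0.03.

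In the 250 bp before the start, CGCT, the core of the conserved element of these promoters, was found on either strand in 55 of the 57 members (96.5%, all but Pcdhb22 and Pcdhga12), against 60.5% of all promoters. The short core AGNNGGCGC of the CTCF site was found in 3 members (5.26%), against 6.73%. Of the SOX motifs, ACAATG was found in 8 members (14.0%, against 9.22%) and in none of the 5 C-type members, and ACAAAG in 14 (24.6%, against 15.7%), of which 2 were C-type. A match is a description of letters and no evidence of binding.

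Genes around the members had other levels. The 5 protein-coding genes that start inside the span under other symbols were low, apart from Taf7, a subunit of the general transcription factor TFIID, at 2.57. The mitochondrial ornithine transporter Slc25a2, whose gene lies between the Pcdhb and Pcdhg arrays, had 0.386, 0.168, 0.841 and 1.96. Gm42416, whose start is 93 bp from that of Pcdha4, had a mean of 0.713, Gm37013 1.00 and Gm37388 0.993. Exons of Gm42416, Gm37013 and Gm37388 lie in the tiles 37825001 to 37826000 and 37833001 to 37834000, which also hold member exons. By annotation these genes are thus not separate from the cluster. Just before the cluster, the histidyl-tRNA synthetase genes Hars2 and Hars had means of 7.59 and 7.37 and Zmat2 5.75. Just after it, Diaph1 had 13.4, Hdac3 16.6 and Rell2 16.9, and in each SOX9 library these 3 stood above every member.

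The promoters of 12 non-clustered protocadherins, of which Pcdh1 and Pcdh12 start within the 500 kb after the cluster, were covered far more than the clustered alternates. Their median was 5.70, and 10 of the 12 were above the library mean in all 4 SOX9 libraries. Pcdh9 was the highest at 16.8, 29.0, 18.9 and 13.2, Pcdh1 was the most even at 17.6, 18.3, 17.99 and 16.7, and Pcdh17 had 10.9, 14.7, 12.6 and 8.71. The C-type members lay in the range of this group and the alternates below its median.

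Of 16 genes for regulators of the cluster, 12 were above the library mean in all 4 SOX9 libraries, and the median was 7.05. Smc3, a core subunit of cohesin, had 19.3, 29.5, 18.1 and 12.6. Ctcf, the DNA-binding protein that anchors the promoter loops of the cluster, had 15.2, 26.7, 18.1 and 16.2, and the DNA methyltransferase Dnmt3a a mean of 13.3. The 13 genes for partners of clustered protocadherins, such as the kinase Fyn and the WAVE complex subunit Wasf1, had a median of 8.34, with 12 above the mean in all 4 libraries and Nlgn2 the highest at 44.8. In each of these 3 lists limma called 0 genes, with 0 at an unadjusted p under 0.05.

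Promoters of cell-type markers were read as a check of the tissue, with the caveat that SOX9 CUT&Tag coverage is no measure of expression. The median was 13.1 for 6 oligodendrocyte markers, 4.43 for 3 ependymal markers, 4.39 for 7 neuron markers, 2.97 for 6 astrocyte markers and 2.202 for 5 microglia markers. It was 1.97 for 5 skeletal muscle and 1.34 for 5 liver markers, tissues that should be absent. Above the library mean in all 4 SOX9 libraries were 6, 2, 6, 4, 2, 1 and 1 genes of these lists in the same order. The astrocyte markers reached from 0.669 (Aqp4) to 14.7 (Slc1a2), with Sox9 itself at 5.56. The alternate protocadherins, with a median of 0.662, thus lay under the lists of absent tissues, and the C-type median between the ependymal and oligodendrocyte lists. In these 7 lists limma called 0 genes at 1 dpi, with 1 liver marker (Ttr) and 1 muscle marker (Tnnt3) at an unadjusted p under 0.05.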

How the data were processed

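The authors assigned reads with deML, aligned them to mm10 with Bowtie2 2.5.4, removed duplicates with Picard 3.4.0 and called peaks with SEACR 1.3. The deposited table gives coverage, the number of fragments over each stretch, by library; the step that wrote it is not stated, nor is a mapping-quality filter. Fragments were recovered from the rises and falls of coverage. Coverage was averaged over windows of 1 kb on each side of GENCODE gene starts and over 1-kb tiles, and divided by the library mean. limma 3.58.1 (R 4.3.3) with a mean-variance trend was fitted to log2(coverage + 0.5) of the 4 SOX9 libraries, over all windows with a mean of at least 0.5 and all tiles with a mean of at least 1, with Benjamini-Hochberg adjustment over all of them. Other values came from Python 3.11.15, numpy 2.4.6 and scipy 1.17.1. The sparse secondary-only controls were left out of the main model. The fit was also run on simulated counts that held counting error only, with changes set in better covered windows. That run does not show how the fit performs on low member windows or with spread between libraries.

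Named genes were all C-type members, the 3 highest and 2 lowest members of each family by mean coverage, the 3 largest log2 changes in each direction among members whose conditions did not overlap, the other genes starting inside the span, the nearest 3 on each side, the 3 highest of the regulators and of the non-clustered protocadherins, and the 5 highest tiles. Other genes named, such as Pcdhga7, Pcdhga9 and Pcdhgb6, were picked after their values were seen. The members and the lists (regulators, non-clustered protocadherins, partners, cell-type markers) were chosen with earlier results of these data known. Motifs were counted on both strands. No sequence of chromosome 18 is printed. Alternatives were other window widths and anchors, scalings, pseudocounts, filters, a sex block, all 8 libraries, thinning and leaving out each library.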

Additional observations from a re-analysis of the deposited data

Results flagged for a closer look

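Pcdhac2 differed in direction between the sexes. Coverage at 1 dpi over uninjured was 2.45 on the log2 scale for the M pair and -2.24 for the F pair, from coverages of 1.45 and 8.86 uninjured and 10.2 and 1.48 at 1 dpi (M, then F). With windows of 2 kb the values were 1.49 and -0.97, and with windows at the first coding base 1.51 and -1.53. This difference by sex was not tested, and with 1 library for each sex and condition it cannot be told apart from a difference between libraries. Moves of at least 1 on the log2 scale in opposite directions were found in 6 of the 57 members (10.5%) and in 1206 of all 21938 promoter windows (5.50%), of which 972 were up in M and down in F.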

How the results depend on the processing

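Each condition had 2 libraries, sex was the same split as replicate, and most member windows held few fragments. The labels give no replicate number beyond sex. The numbers of member windows and of cluster tiles called were 0 under every alternative that kept all SOX9 libraries. Under these alternatives 0 to 5 member windows and 1 to 40 cluster tiles had an unadjusted limma p under 0.05. Both upper ends came from the fit of all 8 libraries, where such p-values were common over the genome. There 5 of 40 member windows stood beside 1234 of all 18193 windows tested. Likewise, 40 of 230 cluster tiles stood beside 125288 of all 795162 tiles tested. Over all promoter windows the number called, 1 in the model reported (Gm11361 on chromosome 13), was 0 with trimmed mean scaling, in the fit of all 8 libraries, with no filter on low windows and with windows of 0.5 kb, 2 with windows at the first coding base, and 0 to 0 when each SOX9 library was left out; it was 1 with sex as a block. A lone library was taken to vary like the others. The cause of these differences was not tested.

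The median member coverage was 0.623 with windows of 2 kb, which reach farther into the flanks. The median log2 change of the members ran from -0.27 to 0.25 over the left-out libraries. The difference in coverage of the whole span, -0.0301, ran from -0.0784 to 0.0181 over the left-out libraries and was -0.0931 when scaled by the median 1-Mb bin, with the sign turned without the uninjured M library. The C-type over alternate ratio, 8.30 on the mean over libraries, ran from 7.43 to 9.20 over 10 alternatives. Members above the mean in all SOX9 libraries used numbered 8 to 13, members higher at 1 dpi 7 to 11 and members lower 5 to 8. The same counts over all windows were not taken under these settings, so the ranges are not set against a background. Leaving out fragments under 50 bp, the C-type over alternate ratio under every setting, and leaving out libraries for the number of members above the mean were added after the data were seen.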

Other observations

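The tile 37218001 to 37219000, picked after its values were seen, ranked 7 in the cluster and lies between the Pcdha and Pcdhb arrays, on no member exon. Its SOX9 coverage was 3.47, 13.02, 13.2 and 4.26 (uninjured M and F, 1 dpi M and F), high in the same libraries as Pcdhac2. The stretch between these arrays averaged 0.638.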
